A study of Mus musculus with 24 samples.

Results

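The genes described here are 9 genes of cytokine signalling, out of 18669 in the count table, measured in quadriceps femoris muscle of mice. They are the chemokine Ccl9, the receptor chains Il1r1, Il4ra, Osmr and Il6ra, the NF-kB inhibitor Nfkbia, the pair Stat3 and Socs3, and the secreted matrix protein gene Tnfaip6. They were picked by symbol, because several of them were lower after HSP990, an inhibitor of the chaperone HSP90, in R6/2 mice. That comparison is therefore given as a description with no test, and so is any other that uses its 4 libraries. All 9 genes passed the filter on low counts.

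RNA was sequenced from 24 mice, 2 in each of 12 groups, 4 h after treatment, on a CBA x C57BL/6 F1 background. Wild type mice and R6/2 mice, which carry exon 1 of human HTT as a transgene and model Huntington's disease, were 12 weeks old. Hsf1-/- mice, which lack the transcription factor HSF1, were 10 weeks old in the heat shock (HS) experiment and 8 weeks old in the HSP990 experiment. HS mice were held at 41.5 °C for 15 min under isoflurane and control mice at 36.9 °C for 21 min, so that controls were anaesthetised too. HSP990 was given by mouth at 12 mg/kg in a methyl cellulose formulation, while the labels give saline alone as the vehicle, so that the drug and its formulation cannot be told apart.

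Libraries held 22450177 to 46599238 counts. Hsf1 itself was still counted in Hsf1-/- mice, at 21.1 to 29.0 CPM (counts scaled to library size by TMM) against 52.9 to 68.5 CPM in wild type mice, while Hspa1a, an HSF1 target, reached 961 to 1063 CPM in wild type HS mice and 1.91 to 3.00 CPM in Hsf1-/- HS mice. The 6 skeletal muscle markers were abundant in every library, but their sum was 35895 to 76697 CPM in R6/2 mice and 166651 to 225996 CPM in the others, and the TMM scaling factors of R6/2 libraries (1.19 to 1.395) lay above those of the rest (0.8079 to 0.954). Y-linked transcripts were at or near 0 in wild type and R6/2 mice of the HS experiment and at 163 to 230 CPM in sum in all other mice. Treatment comparisons within a genotype are not crossed with this. In bulk muscle, fewer cells of a type and less RNA per cell cannot be told apart.

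Cytokines of the IL-6 family signal through receptors built on gp130 and activate STAT3, which drives genes such as Socs3. SOCS3 then blocks the same receptors. IL-1 and TNF activate NF-kB, which is held in the cytoplasm by IκBα, the product of Nfkbia. Nfkbia is itself an NF-kB target, so the inhibitor is rebuilt after each activation. Muscle fibres, fibroblasts, endothelial cells and resident macrophages all carry some of these receptors.

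In mm9, Nfkbia lies at chr12:56590398-56593634 on the minus strand and Ccl9 at chr11:83386421-83392138 on the minus strand. Il1r1 spans chr1:40281925-40373043 and Il4ra chr7:132695785-132722986, both on the plus strand. Osmr is at chr15:6763577-6824313 and Il6ra at chr3:89673246-89717084, both on the minus strand. Socs3 is at chr11:117827393-117831361 and Stat3 at chr11:100746412-100800854, also on the minus strand, and Tnfaip6 is at chr2:51893529-51912206 on the plus strand. Stat3 shares exonic sequence with Stat5a on the other strand, and since the use of strand in counting is not given in the sources used here, the Stat3 counts are less certain. None of the other genes overlapped another annotated gene, and 0 of the 9 had a near-identical copy among coding transcripts.

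RefSeq promoters (GRCm38.p6, 250 bases before to 50 after the start) were found for 9 of the 9 genes, 10 promoters in all, and were searched on both strands for an NF-kB site, the STAT site TTCNNNGAA and the heat shock element core GAANNTTC. Of 32851 promoters, 8.46% held the first, 8.3% the second and 7.86% the third. For each gene with a match upstream of the start, 1 stretch is shown, with the match in capitals. Whether any of these sites is bound or used was not tested.
Nfkbia, NF-kB, chr12:55492648-55492696, minus strand: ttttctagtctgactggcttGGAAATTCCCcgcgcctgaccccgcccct
Ccl9, NF-kB, chr11:83578642-83578691, minus strand: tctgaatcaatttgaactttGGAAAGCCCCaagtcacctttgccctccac
Socs3, STAT, chr11:117969492-117969540, minus strand: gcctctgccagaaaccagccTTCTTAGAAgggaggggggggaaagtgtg
Tnfaip6, STAT, chr2:52037884-52037932, plus strand: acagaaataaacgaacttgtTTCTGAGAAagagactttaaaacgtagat
Il1r1, heat shock element core, chr1:40266432-40266479, plus strand: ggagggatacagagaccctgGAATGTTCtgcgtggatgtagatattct
The matches began 29 bases before the start in Nfkbia, 35 in Ccl9, 154 in Socs3, 209 in Tnfaip6 and 134 in 1 of the 2 Il1r1 promoters, which also held an NF-kB match 232 bases before its start. Il4ra held an NF-kB match downstream of its start. In the promoters of Osmr, Il6ra and Stat3 these letters were not found.

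**Figure D1:**
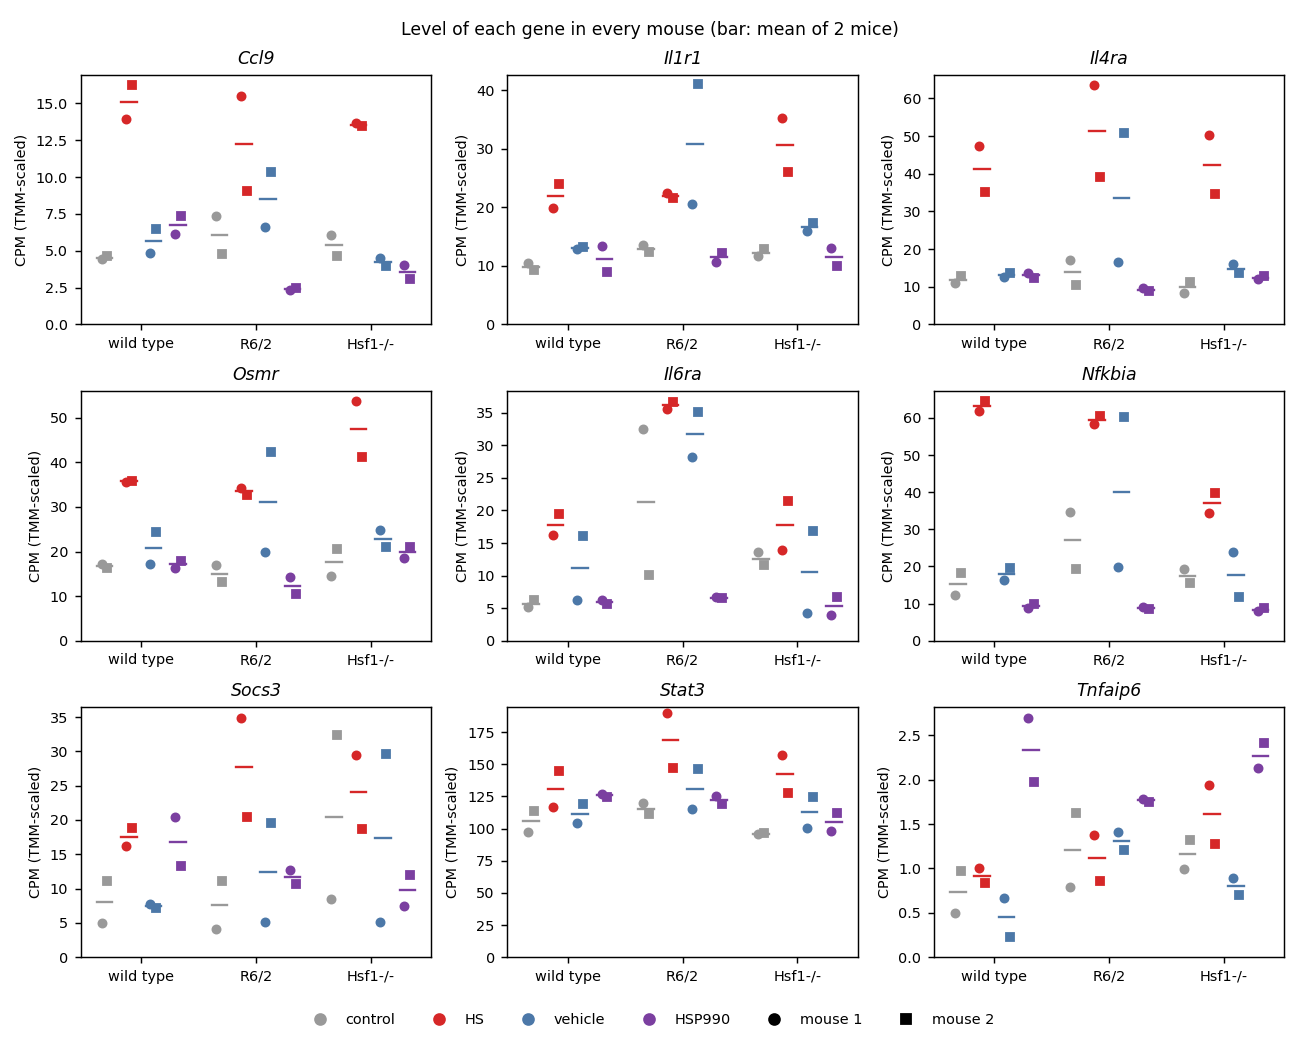
Level of each of the 9 genes in every mouse, in CPM scaled by TMM (y axis, from 0), by genotype (x axis) and treatment (colour), with the 2 mice of a group as circle and square and a bar at their mean. HS mice are above controls in all 3 genotypes for Ccl9, Il1r1, Il4ra, Osmr and Nfkbia, and R6/2 vehicle mice are spread widely for Il4ra (16.5 and 50.9 CPM) and Nfkbia (19.8 and 60.1 CPM).

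HS raised 4 of the 9 genes in wild type muscle: Nfkbia, Il4ra, Ccl9 and Il1r1. Their fitted changes ranged from 2.22-fold for Il1r1 to 4.09-fold for Nfkbia. All 9 genes had a higher fitted level in HS mice, and their median log2 fold change was 1.15, against -0.0136 over all genes tested. In both HS mice 8 genes were above both controls, as were 23.1% of all genes tested, and only Tnfaip6 overlapped. Over all genes tested, 2.06% were called in this comparison.

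Nfkbia stood at 12.5 and 18.3 CPM in control and at 61.8 and 64.4 CPM in HS wild type mice, a log2 fold change of 2.03 ± 0.40 (SE, adjusted p = 0.0126). The groups were far apart and the HS mice agreed closely. Il4ra, the receptor chain shared by IL-4 and IL-13, was at 11.0 and 12.9 CPM in control and at 47.5 and 35.0 CPM in HS mice (1.79 ± 0.39, adjusted p = 0.0215). Ccl9, a CC chemokine that attracts myeloid cells, was at 4.45 and 4.63 CPM in control and at 13.9 and 16.3 CPM in HS mice (1.73 ± 0.29, adjusted p = 0.0039). For both genes each HS mouse was above both controls. Il1r1, the signalling receptor of IL-1, went from 10.4 and 9.33 CPM to 19.9 and 24.0 CPM (1.15 ± 0.26, adjusted p = 0.0287).

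Osmr, the oncostatin M receptor chain that pairs with gp130, missed the threshold in edgeR. It was at 17.1 and 16.3 CPM in control and at 35.6 and 35.9 CPM in HS wild type mice (log2 fold change 1.09 ± 0.28, adjusted p = 0.0542). It was called with RLE size factors (adjusted p = 0.0492), with no filter on low counts (0.0399), by DESeq2 (0.00515) and in a fit of the 4 libraries alone (0.00128). Il6ra, the chain that binds IL-6, was at 5.22 and 6.20 CPM in control and at 16.2 and 19.5 CPM in HS mice (1.64 ± 0.56, adjusted p = 0.178). Its groups did not overlap, but its error, pooled over all 12 groups, was wide. Socs3 was at 5.04 and 11.0 CPM against 16.1 and 18.8 CPM (adjusted p = 0.644), and Stat3 at 97.6 and 114 CPM against 116 and 145 CPM (adjusted p = 0.513). Tnfaip6, which encodes the hyaluronan-binding protein TSG-6, was at 0.495 and 0.97 CPM against 1.01 and 0.832 CPM, from only 11 to 27 counts a library.

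With 2 mice a group, the wild type calls depended on each library. Without wild type control replicate 1 or control replicate 2 the number of genes called was 0, and without HS replicate 1 or HS replicate 2 it was 1, Ccl9. The fold changes themselves moved little over all alternatives, from 1.78 to 2.34 on the log2 scale for Nfkbia and from 1.60 to 1.84 for Ccl9.

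In R6/2 mice none of the 9 genes passed the edgeR test after HS, where 0.0436% of all genes were called. An unadjusted p below 0.05 was found for 7 of the 9, against 8.12% of all genes. DESeq2 called 2, Il4ra and Osmr, and 128 of all 13754 genes. Both HS mice were above both controls for 8 genes, as they were for 15.1% of all genes tested. Il4ra was at 17.1 and 10.6 CPM in control and at 63.6 and 39.2 CPM in HS mice (log2 fold change 1.89 ± 0.38, adjusted p = 0.101), and Osmr at 17.0 and 13.1 CPM against 34.2 and 32.8 CPM (1.15 ± 0.28, adjusted p = 0.172). Both fitted values were close to those of wild type mice. Ccl9 was at 7.38 and 4.81 CPM against 15.5 and 9.05 CPM, Il1r1 at 13.5 and 12.4 CPM against 22.4 and 21.5 CPM, and Nfkbia at 34.7 and 19.4 CPM against 58.2 and 60.5 CPM. For Nfkbia the HS level was close to that of wild type mice and both controls were above both wild type controls. Without R6/2 HS replicate 2, more of the 9 genes were called, and so were many more of all genes. That group then held 1 mouse and was assumed to vary like the others.

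In Hsf1-/- mice edgeR again called 0 of 9 genes after HS, where 0.00727% of all genes were called. An unadjusted p below 0.05 was found for 6 of the 9, against 8.8% of all genes. DESeq2 called 4 of the 9, and 165 of all 13754 genes. Il4ra was at 8.40 and 11.3 CPM in control and at 50.2 and 34.6 CPM in HS mice (log2 fold change 2.11 ± 0.39, adjusted p = 0.0542). Il1r1 was at 11.6 and 12.9 CPM against 35.2 and 26.0 CPM (1.32 ± 0.26, adjusted p = 0.055), and Osmr at 14.5 and 20.6 CPM against 53.8 and 41.2 CPM (1.44 ± 0.28, adjusted p = 0.055). The HS mice lay well above the controls for each of these receptors. Ccl9 was at 6.05 and 4.68 CPM against 13.7 and 13.5 CPM (1.34 ± 0.28, adjusted p = 0.0722), and Nfkbia at 19.4 and 15.5 CPM against 34.4 and 39.8 CPM (1.08 ± 0.40, adjusted p = 0.381). Il6ra was at 13.6 and 11.6 CPM against 14.0 and 21.5 CPM (0.49 ± 0.54, adjusted p = 0.881). Stat3 was at 95.5 and 96.6 CPM against 158 and 128 CPM (0.57 ± 0.16, adjusted p = 0.192). Socs3 (8.48 and 32.4 against 29.5 and 18.8 CPM) and Tnfaip6 (0.995 and 1.32 against 1.95 and 1.27 CPM) overlapped. Fitted on the HS and control libraries of this genotype alone, 5 genes were called (Ccl9, Il1r1, Il4ra, Nfkbia and Osmr), as were 98 of all 13754 genes. Over all alternatives the log2 fold change of Il4ra was 1.81 to 2.35.

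Whether the HS response differed between genotypes was tested directly, and no difference passed. Of the 9 genes, 0 were called for R6/2 against wild type, where 0.0727% of all genes were, and 0 for Hsf1-/- against wild type, where 0.16% were. In both, 0 of the 9 had an unadjusted p below 0.05 and DESeq2 also called 0. The intervals were wide. For Nfkbia the Hsf1-/- response was lower than that of wild type mice by 0.95 on the log2 scale, with a 95% interval from -2.12 to 0.22, and the R6/2 response by 0.90, from -2.06 to 0.26. For Il4ra the difference was 0.32 (-0.82 to 1.45) in Hsf1-/- and 0.10 (-1.02 to 1.22) in R6/2 mice. Over the 3 genotypes, the lowest of 6 HS mice was above the highest of 6 controls for Ccl9 (9.05 against 7.38 CPM), Il1r1 (19.9 against 13.5 CPM), Il4ra (34.6 against 17.1 CPM) and Osmr (32.8 against 20.6 CPM). Over all genes tested this held for 1.56%. Hsf1-/- mice were younger than wild type mice and differed from them in Y-linked transcripts, so that genotype cannot be told apart from these in the comparison of their HS responses.

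**Figure D2:**
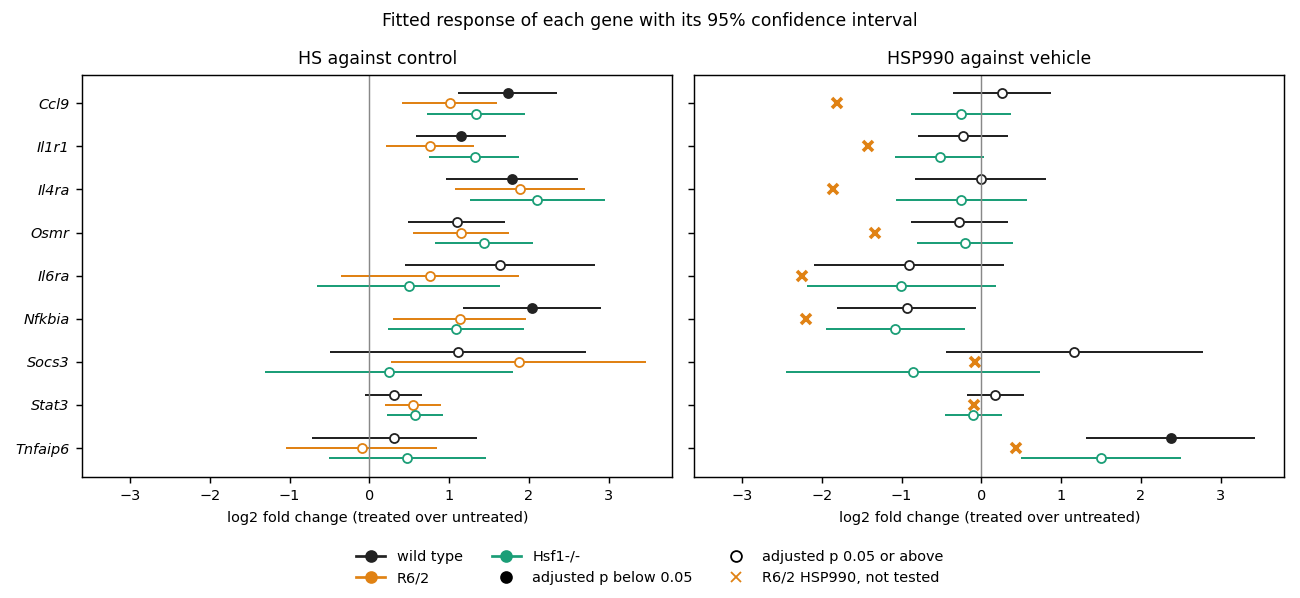
Fitted log2 fold change of each gene (x axis) after HS (left) and HSP990 (right) in wild type (black), R6/2 (orange) and Hsf1-/- mice (green), with 95% confidence intervals, filled where the adjusted p was below 0.05 and crosses without interval for R6/2 HSP990, which was not tested. HS values lie to the right of 0 for all genes except Tnfaip6 in R6/2 mice, at -0.10, and the R6/2 crosses for Ccl9, Il1r1, Il4ra, Osmr, Il6ra and Nfkbia lie between -2.26 and -1.33.

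The summed markers of neutrophils were higher after HS, from few counts and with no test of the sum. The sum of the 4 markers (S100a8, S100a9, Retnlg and Csf3r) was 0.329 to 0.944 CPM in the 6 controls and 2.13 to 7.92 CPM in the 6 HS mice. It came from 12 to 34 counts a library in controls and 74 to 346 in HS mice. The lowest and the highest HS value were both from R6/2 mice. Of the 11 macrophage and leukocyte markers, Fcgr3 rose in wild type HS mice (log2 fold change 1.32 ± 0.27, adjusted p = 0.0133), while their sum overlapped, at 95.5 to 116 CPM in control and 107 CPM in both HS mice. In Hsf1-/- mice the sum was 86.5 to 98.9 CPM in control and 123 to 125 CPM in HS mice, with no overlap, and in R6/2 mice it was 119 to 129 CPM against 92.8 to 150.3 CPM. The part of these markers in the values above was not tested.

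HSP990 raised 1 of the 9 genes in wild type mice, Tnfaip6, where 1.85% of all genes were called. Tnfaip6 stood at 0.662 and 0.233 CPM in vehicle and at 2.69 and 1.97 CPM in HSP990 mice, from 16 and 6 counts to 54 and 57 counts (log2 fold change 2.38 ± 0.50, adjusted p = 0.021). The treated mice were above every wild type mouse of the other treatments. In Hsf1-/- mice Tnfaip6 was at 0.895 and 0.706 CPM against 2.14 and 2.41 CPM, again with no overlap (1.50 ± 0.47, adjusted p = 0.284). The call in wild type mice was lost without vehicle replicate 2 (log2 fold change 1.80), without HSP990 replicate 1 (2.14) and in a fit of the 4 libraries alone, and without vehicle replicate 1 the log2 fold change was 3.30.

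The other genes did not pass in wild type HSP990 mice. Nfkbia was at 16.3 and 19.5 CPM in vehicle and at 8.88 and 9.83 CPM in HSP990 mice (log2 fold change -0.94 ± 0.40, adjusted p = 0.321), both treated mice below both vehicle mice. Il4ra was at 12.6 and 13.6 CPM against 13.8 and 12.4 CPM, and Ccl9 at 4.84 and 6.48 CPM against 6.14 and 7.37 CPM. These overlapped. Il1r1 was at 12.9 and 13.2 CPM against 13.5 and 8.96 CPM, Osmr at 17.2 and 24.4 CPM against 16.4 and 17.9 CPM, and Il6ra at 6.21 and 16.0 CPM against 6.29 and 5.61 CPM. Socs3 was at 7.78 and 7.13 CPM against 20.4 and 13.2 CPM (1.17 ± 0.76, adjusted p = 0.554), with no overlap but a wide error.

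In Hsf1-/- mice 0 of 9 genes were called after HSP990 by edgeR, where 0.218% of all genes were called, and 0 by DESeq2. An unadjusted p below 0.05 was found for 2 of the 9, against 9.48% of all genes. Nfkbia was at 23.9 and 11.7 CPM in vehicle and at 7.92 and 8.93 CPM in HSP990 mice (log2 fold change -1.08 ± 0.41, adjusted p = 0.395). Il1r1 was at 15.9 and 17.3 CPM against 13.0 and 10.0 CPM, and Il4ra at 16.0 and 13.7 CPM against 11.9 and 13.0 CPM. For all 3 the treated mice were below the vehicle mice, as they were for 23 of 105 tested genes of the pathway lists described below. The share over all genes was not counted. Ccl9 (4.52 and 3.99 against 4.03 and 3.07 CPM), Osmr (24.8 and 20.9 against 18.5 and 21.1 CPM) and Il6ra (4.24 and 16.8 against 3.98 and 6.70 CPM) overlapped. The difference between the Hsf1-/- and wild type responses to HSP990 was called for 0 of 9 genes by edgeR and by DESeq2, with 0 at an unadjusted p below 0.05, against 0.422% of all genes. For Tnfaip6 it was -0.87 on the log2 scale (95% interval -2.30 to 0.55). Hsf1-/- mice of this experiment were 8 weeks old and wild type mice 12, so that genotype cannot be told apart from age here.

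Macrophage and leukocyte markers moved with HSP990 in wild type mice. Their sum was 71.1 to 72.5 CPM in vehicle and 110 to 152 CPM in HSP990 mice, and Lyz2 (log2 fold change 1.07 ± 0.24, adjusted p = 0.0338) and Mrc1 (1.25 ± 0.29, adjusted p = 0.0385) rose. The sum of the fibroblast markers was 618 to 641 CPM in vehicle and 876 to 886 CPM in HSP990 mice, and that of the endothelial markers 310.0 to 397 CPM against 478 to 536 CPM. In Hsf1-/- mice, where Tnfaip6 was also above vehicle, the sum was 68.1 to 86.4 CPM in vehicle and 78.2 to 86.5 CPM in HSP990 mice, and the fibroblast sum was 510 to 761 CPM against 476 to 856 CPM. The satellite cell sum was lower after HSP990 in each genotype, at 19.4 to 19.5 CPM against 15.5 to 18.4 CPM in wild type, 27.0 to 29.0 CPM against 20.5 to 20.7 CPM in R6/2 and 18.6 to 21.6 CPM against 11.2 to 16.1 CPM in Hsf1-/- mice. The part of these markers in the values of the 9 genes was not tested.

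In R6/2 mice, the comparison by which the genes were picked, 6 of the 9 were lower in both HSP990 mice than in both vehicle mice, as were 17.9% of all genes tested. Il6ra was at 28.3 and 35.1 CPM in vehicle and at 6.67 and 6.59 CPM in HSP990 mice, a mean of 20.9% of vehicle. Nfkbia was at 19.8 and 60.1 CPM against 8.99 and 8.45 CPM (21.8% of vehicle), and Il4ra at 16.5 and 50.9 CPM against 9.61 and 8.95 CPM (27.6%). The HSP990 mice agreed within narrow limits for these genes, whereas the vehicle mice were far apart for Nfkbia and Il4ra. Ccl9 was at 6.60 and 10.4 CPM against 2.33 and 2.48 CPM (28.3% of vehicle), Il1r1 at 20.5 and 41.1 CPM against 10.7 and 12.2 CPM (37.3%), and Osmr at 19.9 and 42.4 CPM against 14.3 and 10.4 CPM (39.7%).

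The remaining genes were not below both vehicle mice. Socs3 was at 5.16 and 19.6 CPM in vehicle and at 12.6 and 10.6 CPM in HSP990 mice, inside the vehicle range. Stat3 was at 115 and 146 CPM against 125 and 119 CPM, also inside it. Tnfaip6 was at 1.41 and 1.21 CPM against 1.78 and 1.75 CPM, above both vehicle mice.

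The size of these differences depended on R6/2 vehicle replicate 2. It exceeded replicate 1 by 3.08 times for Il4ra, 3.03 times for Nfkbia, 3.79 times for Socs3, 2.13 times for Osmr and 2.00 times for Il1r1, but only by 1.57 times for Ccl9 and 1.24 times for Il6ra. Without it the log2 fold change went from -2.20 to -1.18 for Nfkbia, from -1.86 to -0.83 for Il4ra, from -1.42 to -0.84 for Il1r1 and from -1.33 to -0.69 for Osmr, and for Socs3 it turned from -0.08 to 1.17. For Il6ra (-2.26 and -2.09) and Ccl9 (-1.82 and -1.46) less was lost. The neutrophil marker sum was 0.978 to 2.29 CPM in R6/2 vehicle and 0.647 to 6.25 CPM in R6/2 HSP990 mice, and that of macrophages and leukocytes 104 to 128 CPM against 81.4 to 87.2 CPM. Their part was not tested.

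**Figure D3:**
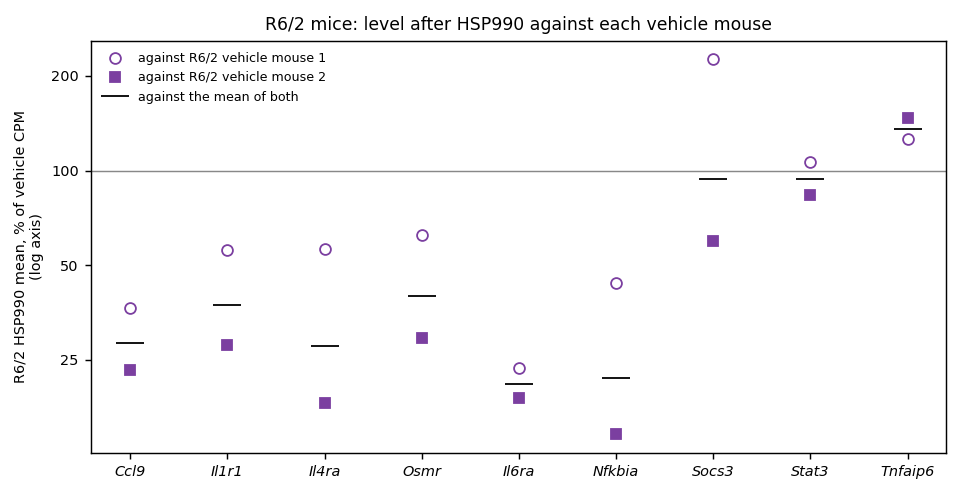
Mean level of each gene in the 2 R6/2 HSP990 mice as a percentage of R6/2 vehicle replicate 1 (open circle), of vehicle replicate 2 (filled square) and of their mean (bar), on a log axis, for the comparison that was used to pick the genes. For Il4ra the value is 56.2% of replicate 1 and 18.3% of replicate 2, and for Il6ra it is 23.4% and 18.9%.

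For Nfkbia, Il6ra and Il1r1 the levels of R6/2 HSP990 mice were near those of wild type HSP990 mice, and for Ccl9, Il4ra and Osmr both R6/2 mice lay below the 4 other HSP990 mice. Nfkbia was at 7.92 to 9.83 CPM in all 6 HSP990 mice and Il6ra at 3.98 to 6.70 CPM, while the 6 vehicle mice ranged from 11.7 to 60.1 CPM for Nfkbia and from 4.24 to 35.1 CPM for Il6ra. R6/2 HSP990 mice were at 0.93 times the wild type HSP990 mean for Nfkbia, 1.12 times for Il6ra and 1.02 times for Il1r1, but at 0.36 times for Ccl9, 0.71 times for Il4ra and 0.72 times for Osmr. On the vehicle side, both R6/2 mice were above both wild type mice for 6 of the 9 genes (all except Osmr, Socs3 and Stat3), as were 32.6% of all genes tested. The R6/2 vehicle and R6/2 HSP990 libraries are those by which the genes were picked, so all these values are descriptions. How many of all genes had both R6/2 HSP990 mice below the 4 others was not counted.

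Untreated R6/2 mice of the HS experiment allowed a test of the genotype on libraries outside the comparison by which the genes were picked. The genes were still chosen with earlier results of these data known, and the error was pooled over all 12 groups. Of the 9 genes, 1 was higher than in wild type controls, Il6ra, where 12.4% of all genes were called. Il6ra was at 32.5 and 10.1 CPM in R6/2 and at 5.22 and 6.20 CPM in wild type controls (log2 difference 1.90 ± 0.56, adjusted p = 0.0343). Both R6/2 mice were above the wild type mice, but 1 by far more than the other, and without R6/2 control replicate 1 the log2 difference was 0.83 (adjusted p = 0.539), against 2.51 without replicate 2. The call was also lost without either wild type control (replicate 1 or 2) and in a fit of the 4 libraries alone. Nfkbia was at 34.7 and 19.4 CPM against 12.5 and 18.3 CPM (0.81 ± 0.39, adjusted p = 0.199). With library totals in place of TMM, the median log2 difference of all genes was 0.55, against 0.0143 under TMM. In that setting 6 of the 9 genes were called (Ccl9, Il1r1, Il6ra, Nfkbia, Stat3 and Tnfaip6), as were 6010 of all 13754 genes.

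Between Hsf1-/- and wild type mice without treatment, 0 of 9 genes were called by edgeR and by DESeq2 in controls, where 1.93% of all genes were called, and 0 in vehicle mice, where 0.0872% were. In both, 0 of the 9 had an unadjusted p below 0.05. Genotype cannot be told apart from age in either comparison, nor in controls from the Y-linked transcripts.

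The responses to HS and HSP990 were set against each other within wild type mice, and 1 of 9 genes was called, Nfkbia, where 2.38% of all genes were. Its HS response exceeded its HSP990 response by 2.97 ± 0.57 on the log2 scale (adjusted p = 0.00958), with a rise after HS and a lower level after HSP990. Without wild type control replicate 1 or vehicle replicate 2 the number was 0, and without HSP990 replicate 1 it was 2, Il1r1 and Nfkbia. Differences for Il1r1 (1.38 ± 0.37, adjusted p = 0.0613), Ccl9 (1.48 ± 0.40, adjusted p = 0.0652), Osmr (1.37 ± 0.40, adjusted p = 0.087) and Il4ra (1.80 ± 0.54, adjusted p = 0.0994) did not pass. Tnfaip6 had the other sign (-2.06 ± 0.69, adjusted p = 0.144). DESeq2 called 5 of the 9 genes here, Ccl9, Il1r1, Il4ra, Nfkbia and Osmr, and 645 of all 13754 genes. In Hsf1-/- mice 0 of 9 were called by edgeR, where 0.145% of all genes were called. An unadjusted p below 0.05 was found for 6 of the 9, against 10.9% of all genes. DESeq2 called 5 of the 9, and 172 of all 13754 genes. The largest difference was that for Il4ra, 2.36 ± 0.55 (adjusted p = 0.11). The 2 experiments differ in anaesthesia, dosing by mouth, in wild type mice also in Y-linked transcripts and in Hsf1-/- mice also in age (10 weeks against 8), and these cannot be told apart from the treatments.

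Lists of other genes of the pathways held 116 genes, of which 105 were tested. After HS in wild type mice 6 were called (5.71% of those tested, against 2.06% of all genes), 5 up and 1 down. Among those that rose were the transcription factor genes Cebpd (15.9 ± 1.1 to 186 ± 54 CPM, mean ± SD, n = 2, adjusted p = 0.00324) and Cebpb (83.3 ± 20 to 317 ± 19 CPM, adjusted p = 4.83e-05), both listed as STAT3-induced genes, the chemokine gene Ccl6 (6.12 ± 2.2 to 18.0 ± 2.1 CPM, adjusted p = 0.0215) and Il11ra1 (13.7 ± 2.0 to 25.6 ± 1.6 CPM, adjusted p = 0.00705). Il11ra1 has near-identical copies, so that its reads may be split among them. Il10rb, a chain of the IL-10 receptor, fell (4.73 ± 0.01 to 2.39 ± 0.15 CPM, adjusted p = 0.0349). In the search for near-identical copies, transcripts listed under Il10rb and Ifnar2 matched each other (98% identity over 50% of a transcript). Among 12 tested STAT3-induced genes, Il4ra and Osmr among them, 3 were called and the median log2 fold change was 1.20. Among 18 NF-kB subunits, kinases and feedback genes only Nfkbia was called and the median was 0.12, against -0.0136 over all genes. Of 16 tested chemokine and chemokine receptor genes, only 5 were higher, Ccl9 and Ccl6 among them, and the median was -0.415.

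After HS in R6/2 and in Hsf1-/- mice edgeR called 0 of the 105 genes, with 12 (11.4%) and 29 (27.6%) at an unadjusted p below 0.05, against 8.12% and 8.8% of all genes. DESeq2 called 2 and 8 of the 105, and 128 and 165 of all 13754 genes. The median of the STAT3-induced genes was 0.84 and 1.41. After HSP990, 1 gene of the lists was called in wild type mice (0.952% of those tested, against 1.85% of all genes), the IL-4 pathway factor Stat6, which rose from 37.6 ± 3.6 to 61.9 ± 2.7 CPM (adjusted p = 0.0363). In Hsf1-/- mice, where 0.218% of all genes were called, it was Tnip1, a partner of the NF-kB inhibitor A20, which fell from 79.9 ± 0.7 to 40.3 ± 2.2 CPM (adjusted p = 0.0159). Where HS and HSP990 responses were compared in wild type mice, 9 genes were called (8.57% of those tested, against 2.38% of all genes), 5 with a higher HS response (Cebpb, Cebpd, Il11ra1, Lcn2 and Mcl1) and 4 with a lower one (Tnfaip3, Traf2, Il10rb and Cxcl12). For Tnfaip3, which encodes A20, the difference was -2.45 ± 0.55 (adjusted p = 0.0232).

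**Figure D4:**
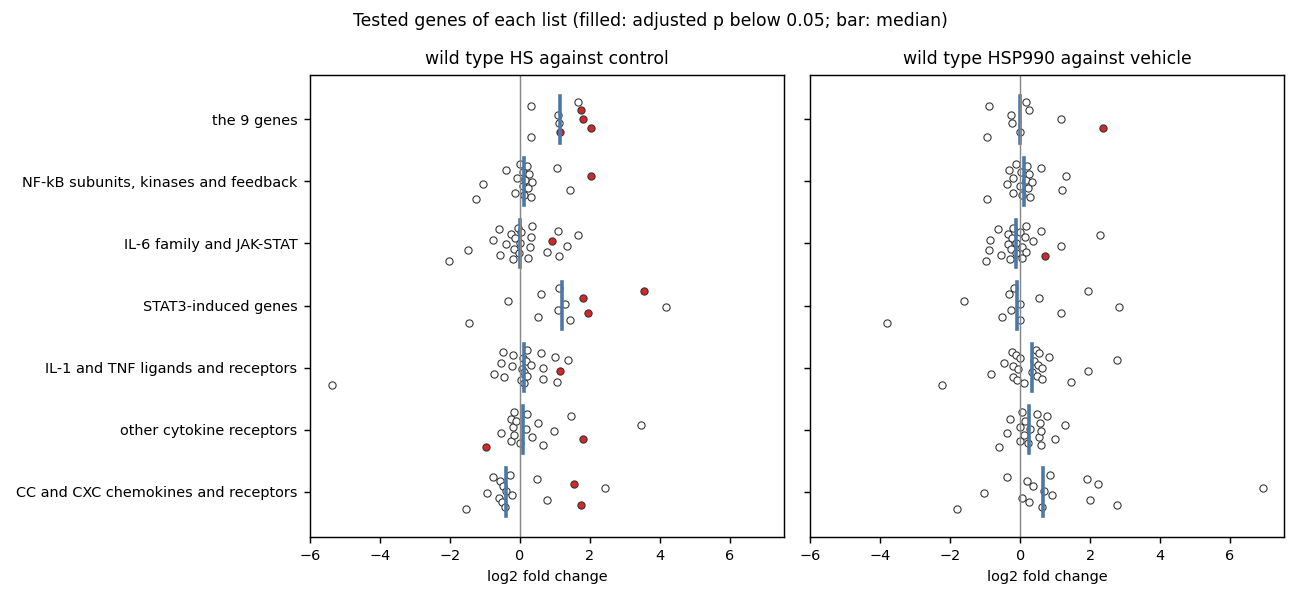
Log2 fold change (x axis) of the tested genes of 6 lists and of the 9 genes after HS (left) and HSP990 (right) in wild type mice, 1 point a gene, red where the adjusted p was below 0.05, with a bar at the median; a gene can stand in several lists, the 9 genes among them. After HS the median of the 9 genes (1.15) and of the STAT3-induced genes (1.20) lie apart from those of the other lists. The STAT3-induced list shares Il4ra, Osmr and Socs3 with the 9 genes, and the lists were chosen with earlier results of these data known.

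Across the 24 mice most of the genes went up and down together, but Tnfaip6 did not and Socs3 did so less. Over the 36 pairs the median Pearson correlation of log2(CPM + 0.5) was 0.61, and 30 were positive. Pairs with Socs3 ranged from 0.29 with Nfkbia to 0.61 with Stat3. With each genotype and experiment centred on its own mean the median was 0.69, and Il4ra and Osmr were closest, at 0.97. The points share treatments and libraries, and the libraries by which the genes were picked are among the 24, so these are descriptions. Pairs among other genes were not computed for comparison. Among 11119 genes at 1 CPM or more on average, the one most like Nfkbia was Ddit4 (0.96), followed by Klf15 (0.95) and Rhob (0.95). Ccl9 was most like the chemokine gene Ccl6 (0.94) and the metallothionein genes Mt1 (0.92) and Mt2 (0.92). Il4ra was closest to Sema6b (0.95), Il1r1 and Osmr to Lrrc8a (0.90 and 0.93), Il6ra to Doc2b (0.91), Stat3 to Tnip2 (0.83), Tnfaip6 to Mest (0.78) and Socs3 to Rasip1 (0.73).

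**Figure D5:**
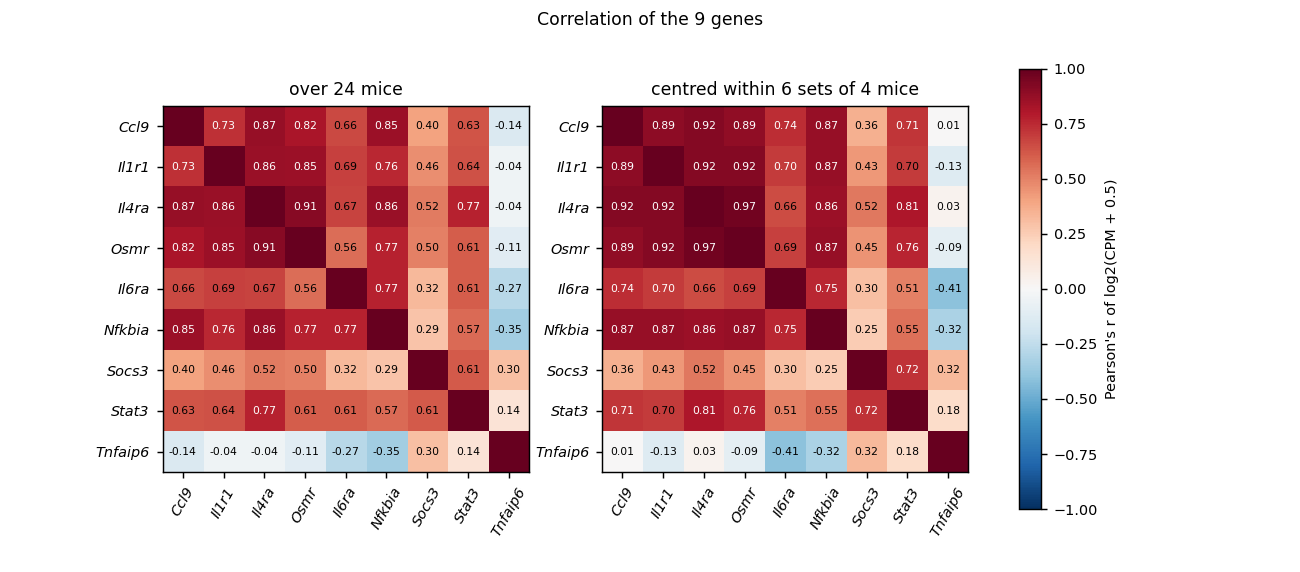
Pearson correlation of log2(CPM + 0.5) between each pair of the 9 genes (both axes list the genes), over 24 mice (left) and after centring each genotype and experiment (right), coloured from -1 (blue) to 1 (red). Il1r1, Il4ra, Osmr, Ccl9 and Nfkbia correlate strongly, and Tnfaip6 stands apart, at -0.35 with Nfkbia on the left. The libraries by which the genes were picked are among the 24.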

How the data were processed

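The authors made strand-specific polyA libraries of quadriceps femoris from 24 mice, sequenced paired reads of 40 bases, aligned them with Bowtie to the mm9 build and deposited counts per gene without normalization. The counting program and annotation are not given in the sources used here. Genes are listed by Entrez number, and 18594 of 18669 matched a symbol.

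Of these, 13754 reached 2 counts in 10 or more libraries and entered the edgeR 4.0.16 fit (R 4.3.3, limma 3.58.1): TMM scaling, 12 groups, quasi-likelihood test, 12 residual degrees of freedom, 13 comparisons, Benjamini-Hochberg adjustment over all genes tested, threshold 0.05. SE and intervals come from this fit. CPM are counts scaled to library totals adjusted by TMM factors. The spread between mice exceeded counting error (chi-square per degree of freedom 20.3 to 115). Depth is 22450177 to 46599238 counts a library. With 2 mice a group, a permutation test of 1 gene cannot go below p = 0.333 and was not run. The procedure was tested on simulated data. The alternatives were RLE size factors, library totals, no filter, filterByExpr, DESeq2 1.42.0, the groups compared only, a replicate block and leaving out each mouse. Near-identical copies were searched with minimap2 2.31-r1302 (98% identity over 50% of a transcript). The text names the 9 genes, called genes of the lists (at most 4 a list and comparison, by size), the genes most correlated with each, and check genes. The genes and lists were chosen with earlier results of these data known. A gene that this rule would name is not reported here.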

Additional observations from a re-analysis of the deposited data

How the results depend on the processing

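The number of the 9 genes called changed by more than 1.5 times in these settings. With DESeq2 on 24 libraries it was 2 in R6/2 HS mice and 4 in Hsf1-/- HS mice (0 by edgeR in both), with 128 and 165 of all genes called. For the difference between the HS and HSP990 responses it was 5 in wild type (1 by edgeR) and 5 in Hsf1-/- mice (0 by edgeR). There, 645 and 172 of all genes were called. With only the groups compared it was 5 in Hsf1-/- HS mice (98 of all genes), 0 in wild type HSP990 mice (main value 1) and 0 for R6/2 against wild type controls (main value 1). It was 1, Il6ra, for Hsf1-/- against wild type controls (main value 0, 766 of all genes) and 6 for the difference of responses in wild type mice (596 of all genes). With no filter it was 3 in Hsf1-/- HS mice (28 of all 15814 genes) and 1 for the difference of responses in Hsf1-/- mice (29 of all genes). With library totals it was 6 for R6/2 against wild type controls, where 6010 of all 13754 genes were called. Of all called genes 95.8% were higher, against 44.2% under TMM. In wild type HS mice library totals gave 3 genes, with 316 of all genes called, and 50.9% of all called genes higher against 77.4%. The cause was not tested. Leaving out each mouse gave 0 to 1 genes in wild type HS mice (main value 4), 0 to 3 in R6/2 HS, 0 to 1 in Hsf1-/- HS, 0 to 1 in wild type HSP990, 0 to 1 for R6/2 against wild type controls and 0 to 2 for the difference of responses in wild type mice; the group left with 1 mouse is then assumed to vary like the others. The sign of every log2 fold change of the 9 genes with an adjusted p below 0.1 was kept in every alternative. The replicate numbers do not pair the mice (66 correlations between same-numbered mice, median -0.021, 12 over 0.1), and with a replicate block the count was 4 in wild type HS mice, 1 in wild type HSP990 mice, 1 for R6/2 against wild type controls and 1 for the difference of responses in wild type mice, as without it. Depth limits Tnfaip6, with 6 to 95 counts a library.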

Other observations

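In control mice of the HS experiment, 6 of the 105 tested pathway genes differed between R6/2 and wild type mice, or 5.71%, against 12.4% of all genes. Cebpd (log2 difference 2.22 ± 0.55, adjusted p = 0.0144), Birc3, which encodes an inhibitor of apoptosis acting in TNF signalling (0.78 ± 0.19, adjusted p = 0.0116), Cebpb (0.63 ± 0.20, adjusted p = 0.0463) and the kinase gene Map3k7 (0.52 ± 0.13, adjusted p = 0.0138) were higher in R6/2 mice. Stat5b (-0.73 ± 0.17, adjusted p = 0.00947) and the growth hormone receptor Ghr (-0.79 ± 0.15, adjusted p = 0.00334) were lower. In Hsf1-/- controls, Myc (1.95 ± 0.41, adjusted p = 0.0245) and the LIF receptor gene Lifr (1.18 ± 0.25, adjusted p = 0.0266) were higher than in wild type controls, which also differed in age and in Y-linked transcripts. They were 1.9% of the 105 genes, against 1.93% of all genes.

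Cebpd was at 8.08 to 10.3 CPM in the 4 wild type and R6/2 HSP990 mice and at 8.44 to 8.54 CPM in the Hsf1-/- HSP990 mice, while R6/2 vehicle mice were at 67.4 and 131 CPM. The wild type HSP990 comparison did not call it, and these values were picked after they had been seen.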
